A study of Mus musculus with 8 samples.

Results

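The genes of the circadian clock were described here at the level of open chromatin in mouse liver: Clock, Npas2, Per1, Per2, Per3, Cry1, Cry2, Nr1d1, Nr1d2 and Dbp. A region was assigned to a gene when that gene was its nearest protein-coding gene on mm10, measured to the gene's span and within 100 kb. This gave 41 of the 49587 consensus regions in the deposited table, with at least 1 region for each of the 10 genes. Regions carry the gene's name and a number along the chromosome, so that Per2 4 is the fourth region of Per2 from its lower-coordinate side. Of the 41 regions, 12 were at a gene end (within 1 kb), 20 further inside a gene and 9 outside.

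The clock is a transcriptional feedback loop. CLOCK, or its paralog NPAS2, pairs with the partner encoded by Arntl and binds E-boxes, and among the genes it switches on are Per and Cry, whose proteins come back to inhibit it. Nr1d1 and Nr1d2 encode the heme-binding nuclear receptors REV-ERB alpha and beta, which repress Arntl, Clock and Npas2 through sites shared with the ROR receptors, and Dbp encodes an output factor that binds D-boxes. In liver this loop sets daily rhythms of metabolic genes, and feeding time is a strong signal for it.

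Open chromatin was read out from flash-frozen liver by ATAC-seq, an assay whose transposase cuts accessible DNA and tags the ends for sequencing. The mice were C57BL/6 males of 9 weeks on standard chow, kept under 14 h of light and 10 h of dark, and all were fasted for 24 h from 3 pm to 3 pm. Every group was therefore taken at 1 clock hour, so these data hold no time course. Each of 4 genotypes had 2 libraries: wild type; Cpt2 L-/-, a liver knockout of the carnitine palmitoyltransferase that long-chain fatty acids need to be oxidised in mitochondria; Ppara -/-, lacking the fatty acid-sensing nuclear receptor PPAR alpha, in the whole body as the double knockout's label words it; and Cpt2 L-/- ; Ppara -/-, the double knockout. The labels name neither the Cre driver nor the cells in which Cpt2 was deleted. Wild type and Cpt2 knockout are called Ppara-intact below, and Ppara knockout and double knockout Ppara-null. The labels do not say that the 2 libraries of a genotype came from separate animals, so any p-value measures only the spread between these libraries.

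The peak lists differed in length between those sides. A Ppara-intact library had 28733 to 39296 peaks, and a Ppara-null library 18132 to 22715. The number in the authors' peak names was 441, 443, 446 or 4717 in the intact libraries and 6831 to 6834 in the null ones, and what it stands for is not stated, so that number and Ppara status cannot be told apart. Read totals are not given in the sources used here, so the depth is unknown. All 7 hepatocyte marker genes had a region called in all 8 libraries, whereas none of the Kupffer cell and leukocyte, stellate or cholangiocyte markers did and 2 of 4 endothelial markers did. Of the 11 Kupffer cell and leukocyte, stellate and cholangiocyte markers, 5 had no region in the table. The share of marker regions called was, by Ppara status, 57.0% to 69.6% of 79 hepatocyte regions in intact against 41.8% to 53.2% in null libraries, 34.3% to 71.4% against 14.3% to 20% of 35 endothelial regions, 14.3% to 71.4% against 0 to 14.3% of 7 stellate regions, and 45.5% to 81.8% against 0 to 9.09% of 11 cholangiocyte regions. Of the 2 Kupffer cell and leukocyte regions, 50% to 100% against 0 to 50% were called. The ranges did not overlap for hepatocyte, endothelial and cholangiocyte markers and met at 1 value for the other lists. Over all consensus regions the ranges were 56.9% to 77.7% in intact and 35.5% to 44.5% in null libraries, also without overlap. The part of these cells in the results by Ppara status was not tested. In bulk liver, fewer cells of a type and less open chromatin per cell cannot be told apart.

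Some start windows of these genes hold sequence elements through which the clock is known to act. Of the windows with a match, 6 are printed to show where called peaks covered such elements. They are the up to 250 bases before a start in the RefSeq promoter table (GRCm38.p6, the mm10 build), 5′ to 3′ on the gene's strand; for Per3 and Cry2, bases inside the gene's span were left off. Capitals mark matches to the E-box CACGTG, the E′-box CACGTT, the D-box TTATGTAA or TTACGTAA, and AGGTCA, the half-site of REV-ERB and ROR elements, each searched on both strands, so that AACGTG and TGACCT are matches on the opposite strand.
Per1 (chr11:69098699-69098948, plus strand): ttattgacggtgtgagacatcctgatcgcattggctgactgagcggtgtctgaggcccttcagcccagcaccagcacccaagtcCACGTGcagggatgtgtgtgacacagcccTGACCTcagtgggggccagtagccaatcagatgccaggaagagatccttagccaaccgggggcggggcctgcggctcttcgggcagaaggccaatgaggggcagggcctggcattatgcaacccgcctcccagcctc
Per3 (chr4:151044708-151044915, minus strand): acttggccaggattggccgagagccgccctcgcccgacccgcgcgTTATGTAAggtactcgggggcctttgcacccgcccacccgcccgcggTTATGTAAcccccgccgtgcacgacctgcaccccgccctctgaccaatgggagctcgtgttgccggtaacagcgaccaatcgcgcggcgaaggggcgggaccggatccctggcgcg
Cry1 (chr10:85185055-85185304, minus strand): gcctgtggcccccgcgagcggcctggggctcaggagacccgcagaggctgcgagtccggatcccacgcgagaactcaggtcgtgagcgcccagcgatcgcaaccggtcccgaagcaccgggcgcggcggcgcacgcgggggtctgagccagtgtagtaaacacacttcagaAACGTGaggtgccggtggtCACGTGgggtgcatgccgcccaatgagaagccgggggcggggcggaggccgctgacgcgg
Cry2 (chr2:92434086-92434319, minus strand): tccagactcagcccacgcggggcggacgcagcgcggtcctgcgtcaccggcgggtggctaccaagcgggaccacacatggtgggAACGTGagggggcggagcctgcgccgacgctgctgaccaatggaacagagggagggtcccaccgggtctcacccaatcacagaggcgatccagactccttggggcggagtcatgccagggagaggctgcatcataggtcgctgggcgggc
Nr1d1 (chr11:98775378-98775627, minus strand): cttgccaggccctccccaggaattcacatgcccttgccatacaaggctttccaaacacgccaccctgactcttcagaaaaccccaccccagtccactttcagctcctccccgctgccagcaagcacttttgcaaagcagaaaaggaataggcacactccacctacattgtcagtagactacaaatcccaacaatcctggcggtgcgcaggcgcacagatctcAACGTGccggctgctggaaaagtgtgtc
Nr1d2 (chr14:18239107-18239356, minus strand): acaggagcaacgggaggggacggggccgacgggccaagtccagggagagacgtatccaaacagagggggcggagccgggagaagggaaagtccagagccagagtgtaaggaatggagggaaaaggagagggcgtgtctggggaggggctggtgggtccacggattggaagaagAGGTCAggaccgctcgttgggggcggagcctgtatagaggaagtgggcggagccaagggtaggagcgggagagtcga

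The table held 12 windows for 9 of the 10 genes, with none for Per2, and the marked matches do not overlap each other. An E-box was present in the windows of Per1, 166 to 161 bases before its start, and Cry1, 60 to 55 bases before it, against 6.02% of all 32851 windows in the table. The E′-box was found in Cry1, Cry2 and Nr1d1, against 3.85% of all windows. Per3 held the D-box at 2 places, 205 to 198 and 158 to 151 bases before its start, while 0.931% of all windows held one. AGGTCA stood in the windows of Per1 and Nr1d2 and in 1 of the 3 of Clock, against 14% of all windows. The windows of Npas2 and Dbp, the second window of Per1 and the other windows of Clock held none of these elements. Neither TGACGTCA, the cAMP response element, nor a direct repeat of AGGTCA with 1 base between stood in any of the 12 windows, against 1.55% and 0.0335% of all windows. The median GC content was 66.4% in the 12 windows and 52.4% in all. A match is a run of letters and does not show that a factor was bound.

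Called peaks covered most of these matches whatever the genotype. Peaks of all 8 libraries covered the E-boxes of Per1 and Cry1, the E′-boxes of Cry1 and Cry2, both D-boxes of Per3 and the AGGTCA of Per1 and Nr1d2. The E′-box of Nr1d1, 28 to 23 bases before its start, was covered in all 4 Ppara-intact and in 2 Ppara-null libraries. The AGGTCA in the Clock window was covered in none. The 1 window of Npas2, chr1:39194022-39194271, was overlapped by no peak of any library.

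In every library a larger share of clock gene regions than of all regions was called. The share was 75.6% and 85.4% in wild type, 90.2% and 82.9% in Cpt2 knockout, 61.0% and 46.3% in Ppara knockout, and 61.0% and 58.5% in double knockout. All 4 Ppara-intact libraries lay above all 4 Ppara-null ones, as they also did over all regions. The means were 83.5% ± 6.10 (SD, n = 4) in intact and 56.7% ± 7.01 (SD, n = 4) in null libraries, while over all regions they were 69.4% ± 8.87 and 38.9% ± 4.26. The difference was thus 26.8 percentage points for clock genes and 30.6 for all regions. When every list was cut to its 18132 most significant peaks, it became -3.66 points for clock genes and 0.686 for all regions, so with lists of equal length the share of clock regions was no longer higher on the intact side.

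**Figure D1:**
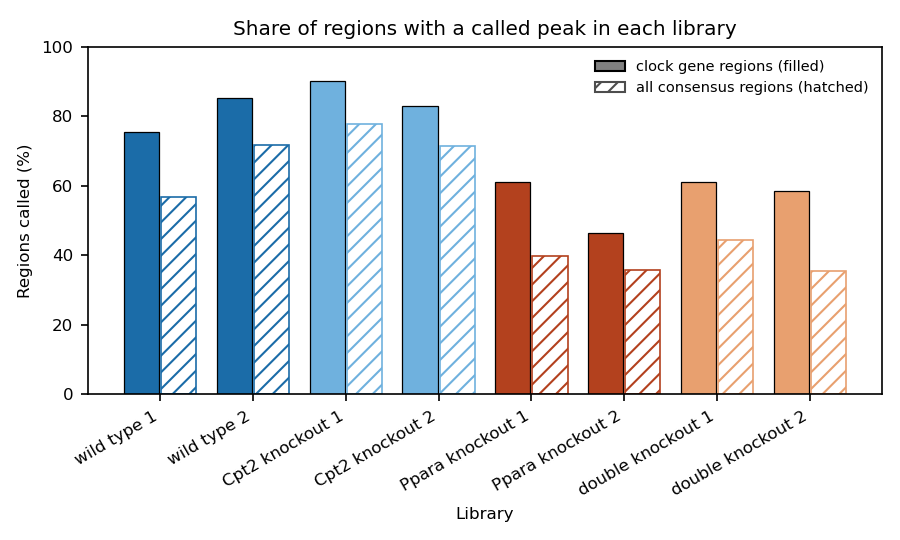
Percent of regions with a called peak in each of the 8 libraries (x axis), for the 41 clock gene regions (filled bars) and all 49587 consensus regions (hatched bars); colours stand for genotypes and there are no error bars, since each bar is 1 library. The clock gene bars stand at 75.6% to 90.2% on the Ppara-intact side and at 46.3% to 61.0% on the Ppara-null side, each above the bar of all regions beside it.

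Each gene contributed between 2 and 10 regions. Per2 had 10, Npas2 6, Cry2 5, Clock, Per1 and Nr1d1 4 each, and Per3, Cry1, Nr1d2 and Dbp 2 each. Of the 41 regions, 15 were called in all 8 libraries, which is 36.6% against 22.7% of all regions, and every one of the 10 genes had at least 1 of them. Called in all 4 Ppara-intact libraries were 29 regions, against 48.5% of all regions, and in all 4 Ppara-null libraries 16, against 23.4%. More intact than null libraries called 21 regions, against 66.9% of all regions, and more null than intact libraries called 4, against 7.28%. Those 4 were Npas2 4, Per1 4, Per2 9 and Per3 1. A single library called 4 regions, Clock 1, Clock 4, Per1 4 and Nr1d2 1, against 23% of all regions.

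At 4 places every Ppara-intact library and no Ppara-null library had a peak: 1 beside Npas2, 1 in Per1 and 2 in Per2. These 4 of 41 regions make 9.76% against 6.82% of all regions, and none showed the reverse, against 0.0686%. In the two-sided exact test of each region's calls, p was 0.0286 for each of the 4, the smallest that 4 against 4 libraries allow. Adjusted over all 49587 regions by Benjamini-Hochberg, the smallest p was 0.415, and 0 of the 3418 regions with an unadjusted p below 0.05 passed, clock genes included. With lists of 18132 peaks, none of the 4 was separated any more: Per2 7 and Per1 2 were then called in 2 intact libraries each, and Npas2 5 and Per2 4 in none. Across all regions the separated calls then numbered 402 on the intact side and 254 on the null side. With a minimum −log10 q of 20, 5 of 41 clock regions were separated on the intact side, where 9.00% of all regions were. Per2 7 was the 1 of these 5 that the deposited lists also separated.

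**Figure D2:**
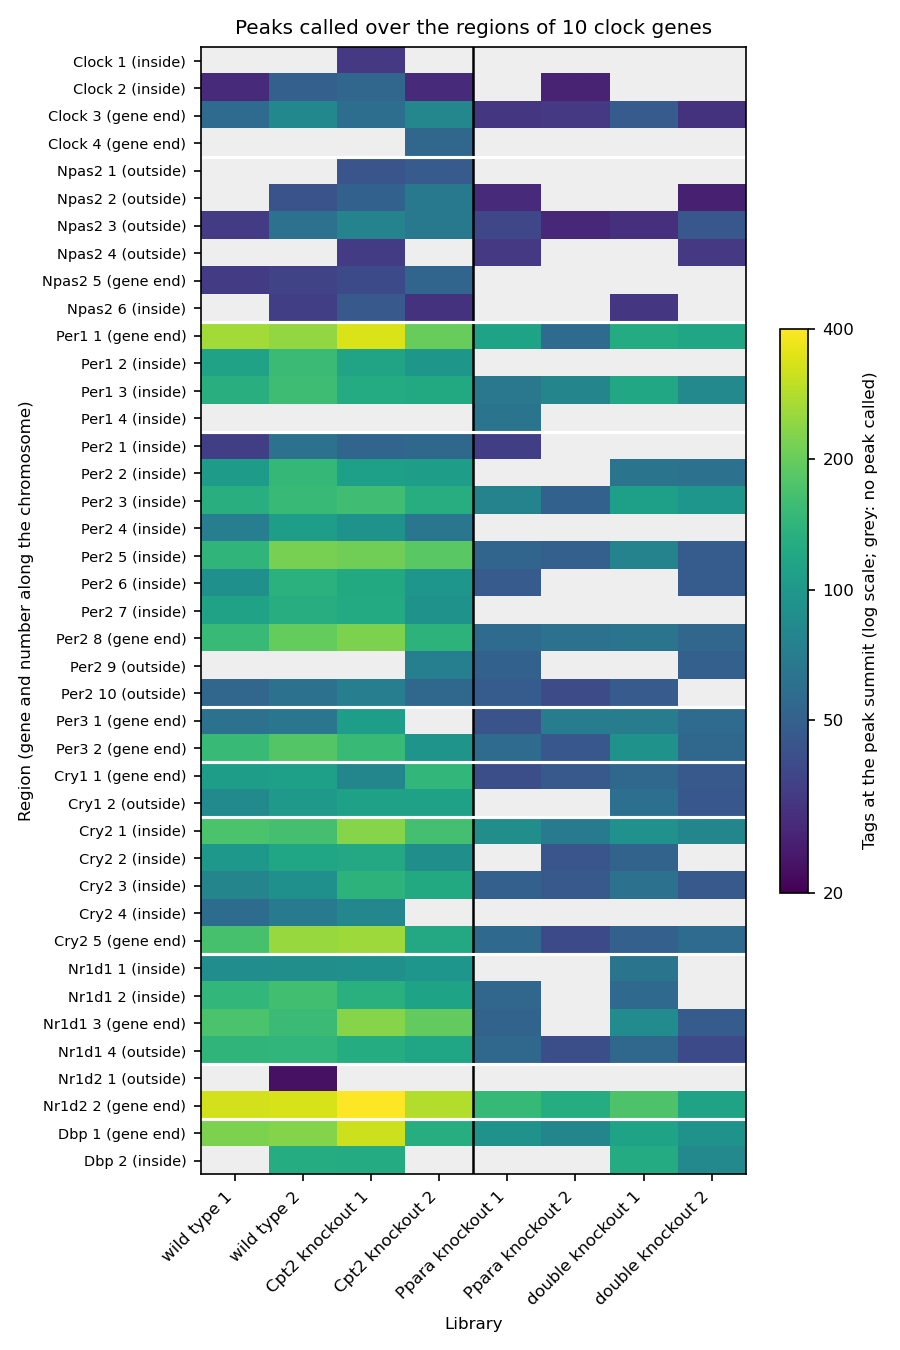
Peaks called over each of the 41 clock gene regions (rows, with their position relative to the gene) in each of the 8 libraries (columns); colour is the number of tags at the peak summit on a log scale, grey means that no peak was called, and the black line divides Ppara-intact from Ppara-null libraries. Per1 2, Per2 4, Per2 7 and Npas2 5 are coloured in all 4 columns on the left and grey in all 4 on the right.

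A called peak is described by its fold and its tags. The deposited fold is the authors' MACS2 value for how far the summit rises over the background around it in the same library. The number of tags at the summit and the local background, in tags, were solved from the deposited fold and −log10 p of each peak, and 1 solution reproduced both values for the peak used in each of the 230 calls of a clock gene region. In all, 241 peaks lay over these regions, and where 2 lay over 1 region the more significant was used. No background was below 4.10 tags, and all 8 libraries reached that lowest value. MACS2 takes its lowest background from the number of tags it is given, so lists made from equal numbers of tags would share 1 floor. Whether the authors equalised the tags is not given in the sources used here, and summit tags are compared without a correction for depth. Values are given in the order wild type, Cpt2 knockout, Ppara knockout and double knockout, and they describe peaks without a test between genotypes.

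Among the activators, Clock encodes 1 subunit of the E-box binding pair. Its main region, Clock 3 at chr5:76303688-76305338, spanned 2 of the gene's 3 listed starts and was called in all 8 libraries. The summit of Clock 3 held 57 and 81 tags in wild type, 59 and 80 in Cpt2 knockout, 32 and 33 in Ppara knockout and 47 and 31 in double knockout. All 4 intact libraries were thus above all 4 null ones, by 57 to 81 against 31 to 47 tags. The deposited fold of Clock 3 did not separate them, with 5.87 and 6.45 in wild type, 4.87 and 5.92 in Cpt2 knockout, 4.46 and 4.89 in Ppara knockout and 6.56 and 4.82 in double knockout. The highest null value, 6.56 in double knockout 1, exceeded all 4 intact values. Summits of Clock 3 were spread over 828 bases, and 5 libraries had 2 separate peaks there. Summed per library, the peaks of Clock 3 covered 1306 to 1494 bases in intact and 400 to 1058 bases in null libraries, while single peaks were 582 to 1494 and 322 to 724 bases wide. The small neighbour Clock 4, also at the gene end, was called only in Cpt2 knockout 2, with 54 tags. Clock 2, inside the gene, was called in all 4 intact libraries and in Ppara knockout 2, with folds of 5.84 to 10.4 against 5.49.

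Npas2, the paralog that can stand in for CLOCK, had its regions spread from 90854 bases outside the span to the gene's inside. Npas2 5 lay 415 bases outside the lower-coordinate end, at chr1:39192517-39193287, and its summit held 34 and 37 tags in wild type, and 39 and 53 in Cpt2 knockout, with no peak in the Ppara-null libraries. It was a weak peak where it was called, with folds of 4.64 and 4.88 in wild type, and 5.35 and 7.16 in Cpt2 knockout. Its −log10 p of 14.2 to 30.1 placed it between the 13.3 and the 47.0 percentile of its own list. The strongest Npas2 region by median −log10 p was Npas2 3, outside the gene at chr1:39143622-39144033, with 34 and 61 tags in wild type, 76 and 67 in Cpt2 knockout, 38 and 28 in Ppara knockout and 30 and 45 in double knockout. It was the exception among the 15 regions called in all 8 libraries, with tag counts that overlapped between the sides: wild type 1, with 34, lay below Ppara knockout 1 and double knockout 2. The fold of Npas2 3 was 6.87 and 11.2 in wild type, 11.9 and 12.3 in Cpt2 knockout, 7.65 and 5.29 in Ppara knockout and 4.98 and 8.30 in double knockout. Npas2 1, 90854 bases away, was called in both Cpt2 knockout libraries and in no other.

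Of the repressors, Per1 is a period gene that also responds quickly to glucocorticoid and cAMP signals. Per1 1, at the lower-coordinate end of the gene (chr11:69094705-69095397), was its strongest region by median −log10 p and held 265 and 247 tags in wild type, 337 and 200 in Cpt2 knockout, 114 and 57 in Ppara knockout and 127 and 118 in double knockout. Intact libraries had 200 to 337 tags and null libraries 57 to 127, without overlap. Its deposited fold was 7.18 and 6.41 in wild type, 7.99 and 5.39 in Cpt2 knockout, 5.57 and 3.27 in Ppara knockout and 5.56 and 5.71 in double knockout, and 3 of the 4 null libraries exceeded Cpt2 knockout 2, so the sides overlapped. Per1 3, over the E-box window printed above, held 132 and 157 tags in wild type, 126 and 124 in Cpt2 knockout, 66 and 78 in Ppara knockout and 119 and 82 in double knockout, with 119 in double knockout 1 just below the lowest intact value of 124. Summits of Per1 3 lay 180 to 236 bases before the listed start in all 8 libraries. The fold of Per1 3 was 3.43 and 3.94 in wild type, 2.89 and 3.22 in Cpt2 knockout, 2.99 and 3.36 in Ppara knockout and 4.48 and 3.62 in double knockout, so its null to intact ratio of mean folds was 1.07, the 1 ratio above 1 among the 15 regions.

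Per1 2 lay between those, at chr11:69096952-69097343 inside the gene, and had no peak on the Ppara-null side. It held 113 and 154 tags in wild type, and 115 and 98 in Cpt2 knockout. Its local background was high, at 37.5 to 43.8 tags, and its fold was 2.96 and 3.83 in wild type, and 2.59 and 2.55 in Cpt2 knockout. Per1 4, over the second listed start window, was called in Ppara knockout 1 alone, with a fold of 2.97 and 63 tags.

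**Figure D3:**
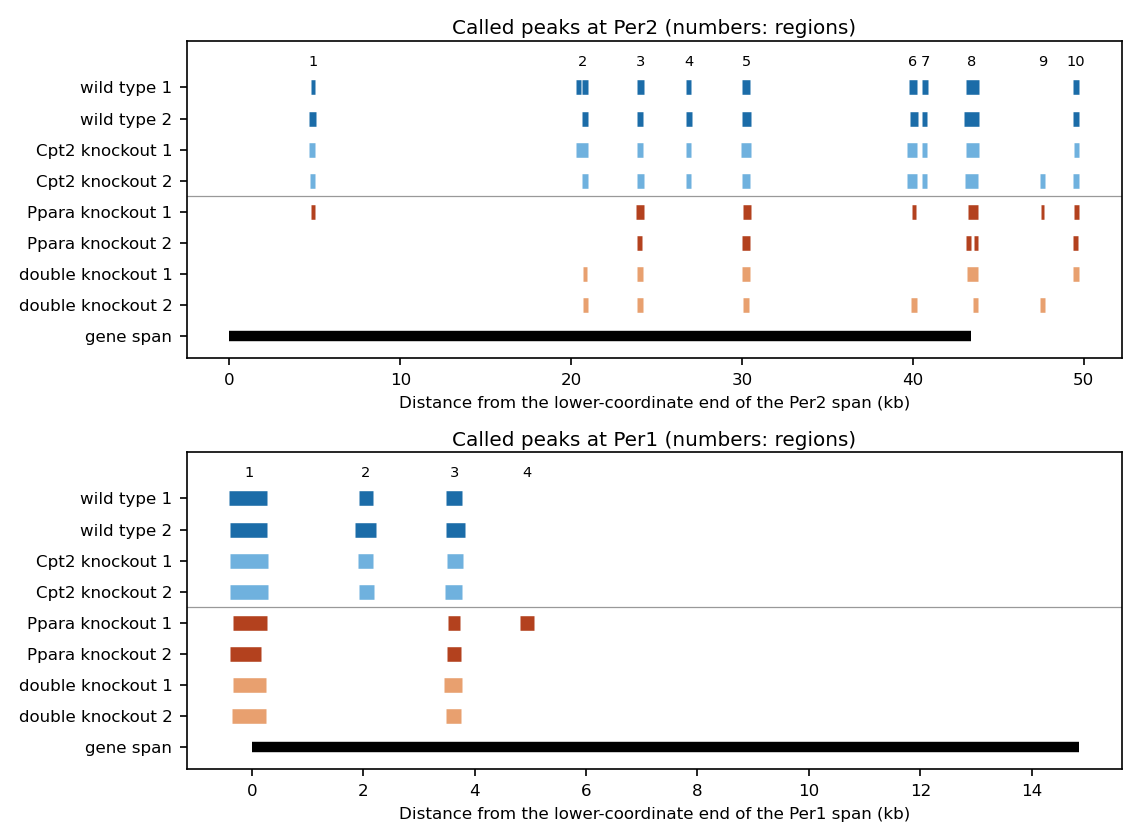
Called peaks at Per2 (top) and Per1 (bottom) in each of the 8 libraries, drawn to scale against the distance in kb from the lower-coordinate end of the gene span (black bar); numbers above the bars are region numbers and the grey line divides Ppara-intact from Ppara-null libraries. Peaks of Per2 4, Per2 7 and Per1 2 appear in the 4 upper tracks of each panel and in none of the 4 lower ones.

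Per2, a period gene whose loss shortens and then abolishes the rhythm of mice, had the most regions. Per2 4 (chr1:91442699-91443022) and Per2 7 (chr1:91456518-91456847), both inside the gene, were the 2 regions without a peak on the null side. Per2 4 held 72 and 106 tags in wild type, and 92 and 65 in Cpt2 knockout, with folds of 3.51 and 4.17 in wild type, and 3.68 and 2.90 in Cpt2 knockout. Per2 7 held 113 and 129 tags in wild type, and 125 and 93 in Cpt2 knockout, with folds of 4.07 and 3.89 in wild type, and 3.92 and 3.46 in Cpt2 knockout. By −log10 p they ranked in the 9.09 to 46.6 and the 36.4 to 59.2 percentile of their lists. They share their locus and an overlapping noncoding gene, Gm35591, with Per2 5 and Per2 6. They are therefore not 2 independent observations.

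Other Per2 regions had a peak on the null side too. Per2 5, inside the gene at chr1:91445942-91446492, was the strongest by median −log10 p and held 142 and 217 tags in wild type, 208 and 185 in Cpt2 knockout, 53 and 50 in Ppara knockout and 76 and 48 in double knockout. Its deposited fold was 8.49 and 10.1 in wild type, 9.77 and 10.1 in Cpt2 knockout, 5.26 and 5.15 in Ppara knockout and 6.40 and 4.45 in double knockout. All 4 intact libraries were above all 4 null ones on both measures, and the mean tag count on the null side was 0.302 of that on the intact side. It was also the 1 clock region whose fold ranked higher in every intact than in every null library among the 11258 regions called in all 8, at percentiles of 34.1 to 53.4 against 6.89 to 32.4. Of those 11258 regions, 5.36% ranked higher in this way and 6.68% lower.

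Per2 8 covered the higher-coordinate end of the gene, chr1:91458974-91459856, and held 150 and 197 tags in wild type, 221 and 138 in Cpt2 knockout, 57 and 62 in Ppara knockout and 63 and 54 in double knockout. The 4 null values, 54 to 63, lay closer together than the intact ones, 138 to 221. Its fold was 5.37 and 5.82 in wild type, 6.70 and 4.73 in Cpt2 knockout, 3.50 and 4.03 in Ppara knockout and 4.08 and 3.74 in double knockout, again without overlap. Per2 2 was called in all 4 intact and both double knockout libraries but in neither Ppara knockout library. Per2 9, outside the gene, went the other way, with peaks in Cpt2 knockout 2, Ppara knockout 1 and double knockout 2.

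Per3, the period gene that the loop can do without, had 2 regions at the same gene end. Per3 2 (chr4:151044316-151045455), which also overlapped a second protein-coding gene, Gm38529, held both D-boxes. Its summits fell within 28 bases of each other in the 8 libraries, 244 to 272 bases before the listed start. It held 150 and 180 tags in wild type, 150 and 94 in Cpt2 knockout, 57 and 45 in Ppara knockout and 93 and 55 in double knockout; Cpt2 knockout 2, with 94, was just above double knockout 1, with 93. The fold was 9.28 and 10.9 in wild type, 8.59 and 7.76 in Cpt2 knockout, 6.42 and 4.67 in Ppara knockout and 8.66 and 6.09 in double knockout, and double knockout 1 lay above Cpt2 knockout 1 and 2. Per3 1, next to it, was 1 of the 4 regions called in more null than intact libraries. It was missed in Cpt2 knockout 2, and its fold was 3.81 and 3.99 in wild type, 6.15 in Cpt2 knockout 1, 4.74 and 7.24 in Ppara knockout and 6.41 and 6.18 in double knockout. Its summit tags, 61 and 65 in wild type, 106 in Cpt2 knockout 1, 43 and 70 in Ppara knockout and 70 and 57 in double knockout, overlapped between the sides, and its local background was 15.3 to 16.4 in the intact libraries that called it and 8.28 to 10.1 in the null ones.

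The cryptochromes Cry1 and Cry2 encode the main inhibitors of the activator pair. Cry1 1 covered the start of Cry1, with the E-box and E′-box printed above, at chr10:85184267-85185695, and held 107 and 108 tags in wild type, 79 and 146 in Cpt2 knockout, 41 and 46 in Ppara knockout and 55 and 46 in double knockout. All intact values were above the null ones, but the fold, 6.82 and 6.97 in wild type, 4.96 and 8.36 in Cpt2 knockout, 5.26 and 4.72 in Ppara knockout and 5.82 and 4.94 in double knockout, overlapped, with Cpt2 knockout 1 below Ppara knockout 1 and double knockout 1. Cry1 2, outside the gene and its strongest region by median −log10 p, was called in all libraries except the 2 of Ppara knockout. Its fold was 6.74 and 8.27 in wild type, 8.56 and 8.35 in Cpt2 knockout and 7.55 and 6.04 in double knockout.

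Cry2 5 covered the Cry2 start at chr2:92433755-92434461 and had the lowest ratio of null to intact tags among the 15 regions called throughout. It held 168 and 251 tags in wild type, 258 and 122 in Cpt2 knockout, 56 and 39 in Ppara knockout and 50 and 57 in double knockout, and the mean on the null side was 0.253 of that on the intact side. The fold was 10.6 and 12.4 in wild type, 11.8 and 7.69 in Cpt2 knockout, 5.63 and 4.18 in Ppara knockout and 4.79 and 6.42 in double knockout, and intact and null libraries did not overlap. Cry2 1, inside the gene at chr2:92421674-92422161, was the strongest Cry2 region by median −log10 p, with 171 and 166 tags in wild type, 232 and 164 in Cpt2 knockout, 88 and 68 in Ppara knockout and 91 and 79 in double knockout. On it too the sides did not overlap by fold, at 8.55 to 11.0 against 6.03 to 7.01. Cry2 4 was called in 3 intact libraries only, with folds of 3.19 to 3.41.

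Nr1d1 encodes REV-ERB alpha, the receptor that links the loop to lipid metabolism. Nr1d1 3 covered its start at chr11:98775178-98775757, with the E′-box, and held 172 and 154 tags in wild type, 232 and 195 in Cpt2 knockout, 52 in Ppara knockout 1 and 85 and 48 in double knockout. Ppara knockout 2 called no peak there, and the 48 to 85 tags of the other null libraries lay below the 154 to 232 of the intact ones. The fold was 6.73 and 5.67 in wild type, 8.15 and 7.37 in Cpt2 knockout, 4.10 in Ppara knockout 1 and 4.88 and 4.05 in double knockout. Nr1d1 4, 7784 bases outside the gene, was called in all 8 libraries, with folds of 5.68 to 6.98 in intact and 4.05 to 4.61 in null libraries. Ppara knockout 2 called 1 of the 4 Nr1d1 regions, the fewest of any library.

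Nr1d2 encodes REV-ERB beta, the paralog of REV-ERB alpha. Nr1d2 2, over its start at chr14:18238176-18239661, was the strongest peak of all 10 genes by −log10 p in every library. It held 326 and 334 tags in wild type, 397 and 282 in Cpt2 knockout, 148 and 128 in Ppara knockout and 173 and 113 in double knockout, and its −log10 p of 73.2 to 292 put it in the 96.2 to 99.6 percentile of each list. Its fold was 12.9 and 12.1 in wild type, 13.1 and 11.4 in Cpt2 knockout, 11.6 and 9.88 in Ppara knockout and 10.3 and 9.64 in double knockout. The tag counts did not overlap between the sides, while by fold Ppara knockout 1 exceeded Cpt2 knockout 2. The other Nr1d2 region was called in wild type 2 alone.

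Dbp encodes the D-box activator whose transcript is among the most rhythmic in liver. Dbp 1, over its start at chr7:45704703-45705384, held 222 and 229 tags in wild type, 320 and 129 in Cpt2 knockout, 93 and 79 in Ppara knockout and 114 and 93 in double knockout. Intact libraries had 129 to 320 and null libraries 79 to 114, and the low intact value was Cpt2 knockout 2. The fold was 6.09 and 5.89 in wild type, 7.49 and 4.15 in Cpt2 knockout, 3.76 and 3.68 in Ppara knockout and 3.66 and 4.19 in double knockout, and the sides overlapped by double knockout 2 alone, which exceeded Cpt2 knockout 2. Dbp 2, inside the gene, was called in 1 library of wild type, 1 of Cpt2 knockout and both of double knockout, with folds of 2.60 to 2.93.

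Over the 15 regions called in all 8 libraries, summit tags, −log10 p and fold were compared between the Ppara-intact and Ppara-null sides. All 4 intact libraries were above all 4 null ones by summit tags at 14 of 15 regions, against 79.3% of the 11258 regions called throughout. By −log10 p this held at 10 of 15, against 76.4%, and by fold at 5 of 15, against 60%. The 5 were Per2 5, Per2 8, Nr1d1 4, Cry2 1 and Cry2 5. Without Cpt2 knockout 2 the count was 8, taken over the regions called in every remaining library. Those regions then also held Per3 1, whose folds overlapped between the sides. None of the 15 showed the reverse on any of these measures, against 0.293%, 0.329% and 0.222%. The median ratio of the null to the intact mean was 0.427 for summit tags at clock regions, with a range of 0.253 to 0.640, and 0.476 at all 11258 regions. For the fold, the median ratio was 0.707 at clock regions and 0.680 at all regions.

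**Figure D4:**
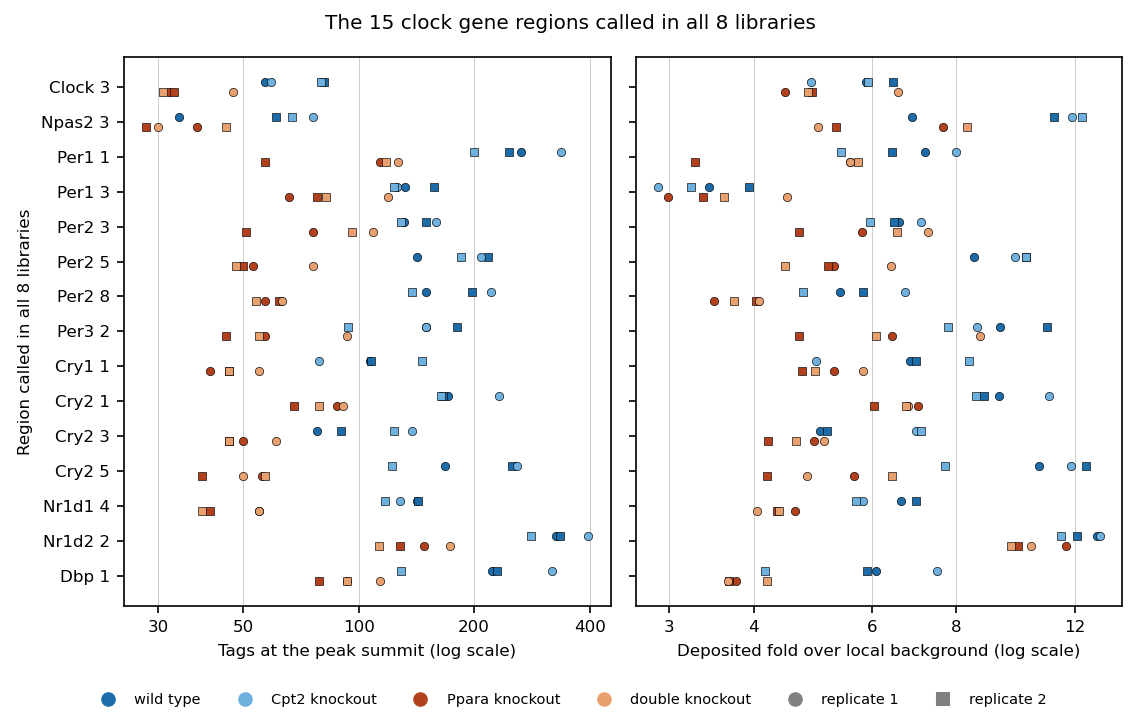
Tags at the summit (left) and deposited fold over local background (right), both on log axes, of the 15 clock gene regions called in all 8 libraries (rows); each symbol is 1 library, with blue colours Ppara-intact, red and orange Ppara-null, circles replicate 1 and squares replicate 2. By tags the blue symbols stand right of the red and orange ones in 14 rows, all but Npas2 3, and by fold in 5 rows.

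The local background was lower at these regions as well. Its median over the 15 regions was 17.6 to 20.9 tags in the intact and 10.0 to 12.6 tags in the null libraries, while over all 11258 regions it was 8.57 to 10.2 and 6.22 to 6.96. At 13 of 15 clock regions all 4 intact libraries had the higher background, against 70.5% of all, and none showed the reverse, against 0.355%. The median ratio of null to intact background was 0.545 at clock regions and 0.688 at all regions. Clock gene peaks thus stood on a higher background than most peaks in every library: 14 of 15 were above the median of all regions in each intact library and 13 of 15 in each null library. Their deposited folds lay mostly below the median of all regions, with 1 to 4 of 15 above it per library. The part of the local background in the differences in calls was not tested.

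**Figure D5:**
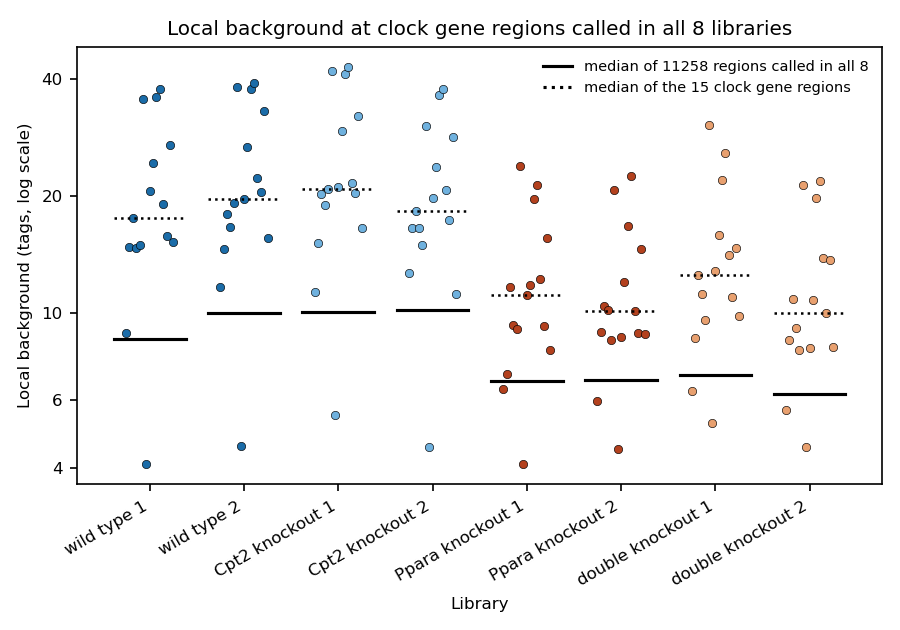
Local background, in tags on a log axis, at the 15 clock gene regions called in all 8 libraries (points), by library; the dotted line is their median and the solid line the median of all 11258 regions called throughout. The dotted lines, at 17.6 to 20.9 on the Ppara-intact and 10.0 to 12.6 on the Ppara-null side, are above the solid line in all 8.

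A region counted for 1 genotype of a pair when both its libraries and neither of the other's called it. Between genotypes that differ in Ppara, all such regions were those of the Ppara-intact one. With 2 against 2 libraries no exact p below 0.333 is possible, so counts are given without a test. Between wild type and Ppara knockout, 8 of 41 regions were called in both wild type libraries and in neither Ppara knockout library, 19.5% against 13.6% of all regions: Npas2 5, Per1 2, Per2 2, Per2 4, Per2 7, Cry1 2, Cry2 4 and Nr1d1 1. None was called in both Ppara knockout libraries and in neither wild type library, against 0.46%. Leaving out Ppara knockout 2 gave 10 regions for wild type and 3 for Ppara knockout, and lists of 18132 peaks gave 4 and 1.

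On the Cpt2 knockout background, 7 regions were called in both Cpt2 knockout and no double knockout library: Clock 2, Npas2 1, Npas2 5, Per1 2, Per2 1, Per2 4 and Per2 7. That is 17.1% against 20.4% of all regions. No region was called in both double knockout and no Cpt2 knockout library, against 0.597%. With lists of 18132 peaks the counts were 1 and 2. They were 12 and 0 without double knockout 1, and 8 and 2 without Cpt2 knockout 1. Between wild type and double knockout, 7 regions were called in both wild type and no double knockout library, 17.1% against 12.9%. None was called in both double knockout and no wild type library, against 1.2%. Without double knockout 1 these counts were 11 and 2, and with lists of 18132 peaks they were 3 and 2. These comparisons share libraries with each other, so their counts are not separate evidence.

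Few clock regions differed in calls by Cpt2 status. No region was called in all 4 libraries of one Cpt2 status and none of the other, against 0.00605% of all regions for Cpt2-intact and 0.0968% for Cpt2-null. In the exact tests 0 clock regions had an unadjusted p below 0.05, while 51 of all regions did, of which 0 passed after Benjamini-Hochberg adjustment. Between wild type and Cpt2 knockout, 1 region, Npas2 1, was called in both Cpt2 knockout and no wild type library, 2.44% against 3.63% of all. None was called in both wild type and no Cpt2 knockout library, against 0.512%. Lists of 18132 peaks gave 3 regions on the wild type side and 0 on the other, and leaving out any 1 of these 4 libraries gave 2 to 5 regions in both directions together. Among the 15 regions called throughout, the fold separated none by Cpt2 status in either direction, against 0.0355% of all regions for higher values in Cpt2-intact libraries and 0.808% for lower ones. The median ratio of Cpt2-null to Cpt2-intact was 1.03 for the fold and 1.07 for summit tags, beside 1.04 and 1.08 at all regions.

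Between the genotypes without Ppara, 3 regions, Per2 2, Cry1 2 and Dbp 2, were called in both double knockout and no Ppara knockout library. That is 7.32% against 2.33% of all regions, and none went the other way, against 1.45%. Cry1 2 had folds of 7.55 and 6.04 in the double knockout and 6.74 to 8.56 in the intact libraries, and Per2 2 had 4.69 and 4.83 against 6.03 to 8.36. Both regions were called in all 4 intact libraries as well, and among the 4 genotypes only Ppara knockout had no peak there. Lists of 18132 peaks gave 3 regions too, a minimum −log10 q of 20 gave 1, and leaving out either library of Ppara knockout, or double knockout 2, gave 5 in both directions together. No clock region was called in the pattern of an interaction, that is in all libraries of both single knockouts and no other, against 0.0121% of all regions, or the reverse, against 0.0101%.

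The other genes of the clock pathway also had regions called on the Ppara-intact side alone. The 15 genes were Arntl, Rora and Rorb, the D-box factors Tef, Hlf and Nfil3, the E-box repressors Bhlhe40, Bhlhe41 and Ciart, the PER and CRY modifiers Csnk1d, Csnk1e, Fbxl21 and Usp2, and Timeless and Noct. All 15 had a region, 121 in sum. Of these, 11 regions (9.09%) were called in all 4 intact and no null library and 0 in the reverse pattern, against the 6.82% and 0.0686% given above. Rora, which encodes the activator opposed by the REV-ERBs, had 5 of the 11 among its 40 regions, and Bhlhe40, Csnk1d, Csnk1e, Hlf, Noct and Usp2 had 1 each. Arntl had 7 regions, 3 of them called in all 8 libraries, and none separated by Ppara status. With lists of 18132 peaks, 0 of the 121 regions were separated in this way on the intact side and 2 on the null side. With the full lists and without double knockout 1, these counts were 17 and 0.

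The genes with the most similar profile of calls were found by distance. Among 1305 protein-coding genes outside the clock lists with at least 8 regions, the percent of regions called over the 8 libraries was closest to that of the clock genes for Rab11fip4, with 20 regions and a Euclidean distance of 14.0 percentage points, Psen2, with 10 regions and 15.6, and Klf15, with 15 regions and 15.6. Rab11fip4 had 75% to 90% of its regions called in intact libraries and 50% to 60% in null ones. Klf15 had 73.3% to 86.7% and 40% to 66.7%. The likeness is in calls over 8 libraries and is a description.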

How the data were processed

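ATAC-seq of 8 mouse liver libraries, 2 for each of 4 genotypes, was analysed from the authors' peak lists. Each library had its own MACS2 peak calls on mm10, per the file headers and peak names. The submitters' processing notes name BWA and MACS2 2.1.0, and the labels' protocols give an Active Motif kit protocol. Duplicate handling, the Tn5 offset and any down-sampling are not given in the sources used here. The deposited score, fold ratio over local background and −log10 p and q are the authors' values for each peak. The further deposited table holds positions of consensus regions and of each library's intervals, per the file headers, and no signal.

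Overlap with a peak, by 1 bp or more, made a region called in that library. The nearest gene was taken from RefSeq GRCm38.p6 (21900 protein-coding genes), and 1 region was tied with a second gene. Where several peaks overlapped a region, which happened for 5 regions, the most significant was used. Summit tags and background were solved from fold, taken as (tags + 1)/(background + 1), and the Poisson p, to a tolerance of 0.01 in −log10 p. Each region's calls were tested with a two-sided exact permutation test, adjusted by Benjamini-Hochberg over all 49587 regions. Because the members and lists were chosen with earlier results of these data known, no p-value is given over them together. Some genes of the wider clock pathway are not reported here and were left out of its counts.

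All regions within 1 kb of a gene end, all regions separated by Ppara or Cpt2 status and each gene's region of highest median −log10 p are given with their values in every library; other regions were named after their values were seen. Alternatives were lists of equal number, a −log10 q minimum, 50% coverage, a single nearest gene, a 10 kb limit, leaving out each library, a replicate block and, added after seeing the data, other measures in place of fold. Scripts (Python 3.11.15, NumPy 2.4.6, pandas 2.3.3, SciPy 1.17.1, matplotlib 3.10.9) were tested on simulated data. The labels tie no replicate number to a shared animal or batch.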

Additional observations from a re-analysis of the deposited data

How the results depend on the processing

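Lists cut to the 18132 most significant peaks changed most results: the regions separated by Ppara status went from 4 to 0, wild type against Ppara knockout to 5, Cpt2 knockout against double knockout to 3 and wild type against Cpt2 knockout to 3 (the last pair mostly in the reverse direction), the difference in share to -3.66 points and the other clock genes to 2, on the null side. A minimum −log10 q of 20 gave 14 for wild type against Ppara knockout. It gave 1 for wild type against Cpt2 knockout, on the wild type side, and 1 for double knockout against Ppara knockout. The difference in share was then 42.1 points for clock genes, beside 29.6 over all regions. By fold 1 region was separated, but only Nr1d2 2 and Cry2 1 were still called in all 8 libraries. Coverage of 50% of a region gave 11 for Cpt2 knockout against double knockout and a difference in share of 37.8 points, and a 10 kb limit gave 0 for wild type against Cpt2 knockout. In place of fold, −log10 p separated 10 of the 15 regions, summit tags 14 and the percentile of fold 1. The cause of these changes was not tested.

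Leaving out 1 library at a time gave 4 to 5 regions separated by Ppara status, 0 by Cpt2 status, 8 to 13 for wild type against Ppara knockout, 9 to 12 for Cpt2 knockout against double knockout, 2 to 5 for wild type against Cpt2 knockout, 4 to 5 for double knockout against Ppara knockout, 8 to 13 for wild type against double knockout, a difference in share of 23.4 to 29.5 points, 5 to 8 regions separated by fold and 11 to 17 regions of the other clock genes. Counts between genotypes in this section take both directions together. Without Ppara knockout 2, wild type against Ppara knockout gave 10 on the wild type side and 3 on the other. Fewer libraries make the rule of complete separation easier to meet. Separation by fold was counted over the regions called in every library left. With the replicate number as a block, 4 regions were separated by Ppara status and 0 by Cpt2 status. These counts had to equal the main ones, since separation within both replicate numbers is separation over all libraries. The smallest p possible in the exact test with this block was 0.0556. The labels state no pairing by replicate number, and none was visible in the summit tags. Between 2 genotypes, the replicate 1 minus replicate 2 difference in log2 summit tags correlated at -0.0297 to 0.0777 over 11258 regions. The depth of the libraries is unknown, and a missing peak does not show closed chromatin.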
